A study of Mus musculus with 6 samples.

Results

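The cytosolic ribosome is built from ribosomal RNA and a set of proteins, and the genes described here encode those proteins in the mouse. They were taken by symbol: Rpl or Rps, a number and at most a short ending (a, x or l, or a further digit), with Rplp0, Rplp1, Rplp2 and Rpsa. Symbols marked -ps as pseudogenes, the Rps6k kinases and names with longer endings, such as Rpl36al and Rps27rt, fall outside this rule. The rule found 84 genes of the 23183 in the tables, 51 of the large subunit and 33 of the small subunit. They were measured by RNA sequencing of lung from mice of the C57BL/6 background, in 3 libraries from lungs given lipopolysaccharide (LPS) into the trachea and 3 from lungs given saline the same way. LPS, an endotoxin of the outer membrane of Gram-negative bacteria, sets off acute inflammation. All titles call the mice wild type and the genotype field does so for saline, but that field names a knockout, LCN2-/-, for LPS 1 and LPS 2, and LCN4-/- for LPS 3. The transcript of Lcn2 went against the LCN2-/- label of LPS 1 and LPS 2, with values of 13.60, 13.29 and 13.82 in LPS 1 to 3 and 8.20, 11.28 and 10.11 in saline 1 to 3. Dose, time after instillation, age and the number of animals are not given in the labels, so a p-value here covers spread among libraries that may be technical.

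Ribosomal protein mRNAs are among the most abundant and shortest of a cell. They share a start site rich in pyrimidines, the 5′ terminal oligopyrimidine (TOP) tract, through which the kinase mTOR and the protein LARP1 set how strongly they are translated, and their levels are usually kept in proportion to each other. Activated immune cells and growing cells are known for making more ribosomes. Because the tissue is a piece of lung, fewer cells of a type and less RNA per cell cannot be told apart.

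The deposited values have the form log2(expression value + 1), and each difference below subtracts the saline mean from the LPS mean on this log2 scale. Depth is unknown from the tables, and their scaling to each other is not given. Before the log, the values summed to 854330 to 1004144 in LPS libraries and to 543167 to 632723 in saline libraries, the table of LPS 3 ending early with 18699 genes. The same 3869 genes stood at exactly 0 in all 3 saline tables, whereas the LPS tables held 5117 to 6223 zeros, so how the tables were made and the treatment cannot be told apart. All 84 ribosomal protein genes had a value in every library. In the values as deposited, markers of other cells moved with the groups. Neutrophil markers summed to 9786.5 to 25378.8 in LPS libraries and 652.9 to 1965.3 in saline libraries (8 of 9 higher, with 8 in the sum). Monocyte markers summed to 878.2 to 1716.1 in LPS and 323.0 to 508.9 in saline libraries (8 of 8 higher). B cell markers summed to 40.0 to 65.8 in LPS and 223.8 to 349.2 in saline libraries (8 of 8 lower), and fibroblast markers to 477.2 to 628.2 in LPS and 1622.3 to 2539.5 in saline libraries (6 of 8 lower). Of the other lists, 5 of 8 alveolar macrophage, 3 of 7 T cell and 4 of 8 endothelial markers were lower, 1 of 8 alveolar type 2 markers was higher and 3 were lower, 3 of 6 red blood cell markers were higher, and 0 of 6 proliferation markers were called either way. No listed marker with a row was at 0 throughout a group, and the part of these cells in the results was not tested.

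The promoters of the 5 genes with the largest differences and of 3 with small differences are shown for what the start sites hold in common. The sequences are from RefSeq (GRCm38.p6), 5′ to 3′ on the gene's strand, from 100 bases before the annotated start to 30 after it, and the capitals mark CCGGAAG or its reverse complement CTTCCGG, the core bound by ETS factors such as GABP.
Rpl38, chr11:114668480-114668609, plus strand: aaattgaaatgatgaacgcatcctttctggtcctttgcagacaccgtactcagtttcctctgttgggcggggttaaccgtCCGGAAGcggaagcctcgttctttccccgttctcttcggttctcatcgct
Rpl26, chr11:68901466-68901595, plus strand: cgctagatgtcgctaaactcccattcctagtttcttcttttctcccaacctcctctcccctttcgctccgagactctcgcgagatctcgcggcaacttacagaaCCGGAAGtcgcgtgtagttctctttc
Rps27l, chr9:66945986-66946115, plus strand: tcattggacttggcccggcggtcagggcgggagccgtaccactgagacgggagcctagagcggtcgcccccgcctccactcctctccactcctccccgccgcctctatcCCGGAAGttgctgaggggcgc
Rpl39, chrX:37085193-37085322, minus strand: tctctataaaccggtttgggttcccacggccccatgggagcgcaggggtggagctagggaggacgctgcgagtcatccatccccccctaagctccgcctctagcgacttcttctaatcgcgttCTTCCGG
Rpl41, chr10:128549139-128549268, minus strand: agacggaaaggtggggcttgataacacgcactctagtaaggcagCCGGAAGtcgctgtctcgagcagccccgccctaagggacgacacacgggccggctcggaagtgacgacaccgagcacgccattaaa
Rpl4, chr9:64173287-64173416, plus strand: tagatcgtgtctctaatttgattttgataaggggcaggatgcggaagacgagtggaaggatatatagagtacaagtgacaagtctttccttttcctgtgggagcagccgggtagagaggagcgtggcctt
Rps15, chr10:80292331-80292460, plus strand: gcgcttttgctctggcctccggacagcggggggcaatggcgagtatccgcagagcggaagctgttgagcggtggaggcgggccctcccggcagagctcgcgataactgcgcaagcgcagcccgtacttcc
Rpl5, chr5:107900428-107900557, plus strand: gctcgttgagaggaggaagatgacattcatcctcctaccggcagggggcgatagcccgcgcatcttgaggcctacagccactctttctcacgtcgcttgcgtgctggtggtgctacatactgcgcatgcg
A RefSeq window of 250 bases before to 50 after the start was matched for 63 of the 84 genes. CCGGAAG, searched on both strands, was in 24 of these 63 windows (38.1%), in 17.9% of the 10207 windows of other tested genes and in 9.2% of all 27025 windows. A run of at least 7 pyrimidines opening with C on the gene's own strand, within 30 bases of the start, was in 42 of 63 (66.7%), against 28.0% of other tested genes and 28.6% of all windows. AAGATGGC, the motif known for the factor YY1, was in 5 of 63 (7.9%), against 4.6% and 2.9%, and can share its first bases AAG with the end of CCGGAAG. Each of the first 5 windows above holds the capitals and the other 3 do not, but this split did not run through the family. In the same span Rpl34, Rpl24, Rpl27 and Rpl18 had none, with differences of 1.447, 1.387, 1.256 and 1.243. Rpl31, Rpl6, Rps7 and Rps6 had them at 0.758, 0.706, 0.704 and 0.676, while Rpl28, Rpl10 and Rps4x at 0.673, 0.642 and 0.598 did not. The 8 shown were picked by their differences, so no more is read from them.

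Most ribosomal protein genes had higher values in LPS lungs in the tables as deposited, though not under quantile normalization or with the trend on transcript length and level removed. Among the 82 genes in the test, 72 rose and 0 fell at an adjusted p of 0.05 (limma, Benjamini-Hochberg over 13116 genes), and the remaining 10 missed that threshold. All 82 differences were above 0, so none would count as lower at an unadjusted p under 0.05 either. The share that rose, 87.8%, stands against 25.7% of all genes tested, while 24.3% of all genes fell and 50.1% changed in either direction. In 80 of 82 (97.6%) every LPS value lay above every saline value, against 32.7% of all genes. The median difference was 0.935, a 1.91-fold higher value, with an SD of 0.279 among the genes and a median standard error (SE) of 0.259, against a median of 0.018 over all genes. Large-subunit genes rose in 43 of 49 with a median of 0.919, which was -0.025 under quantile normalization and -0.004 with length and level removed. Small-subunit genes rose in 29 of 33 with a median of 0.958, which was -0.075 and -0.081 in these fits.

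The count depended on how the tables were scaled. Set to equal sums, 7 members were higher (against 6.08% of all genes) and 0 lower (against 63.6%), with a median of 0.157. Under quantile normalization 5 were higher (against 20.5%) and 12 lower (against 21.2%), with a median of -0.066. With the trend on transcript length and level removed 5 were higher (against 21.3%) and 8 lower (against 20.7%), with a median of -0.034. Members held 52 to 56 of the top 100 places in each library. Quantile normalization gives equal ranks equal values, so it can remove a shift that these members share. At a mean level of 10 or above 52 members lay beside 38 other genes, so the level trend there rests on few other genes. Neither fit can therefore show whether the members shifted together. The median of all genes is -0.678 with equal sums and 0.010 with quantile normalization, so the members stood above it with equal sums and below it with quantile normalization. Without LPS 2 only 31 rose, without saline 3 only 35 and without saline 2 all 82.

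**Figure D1:**
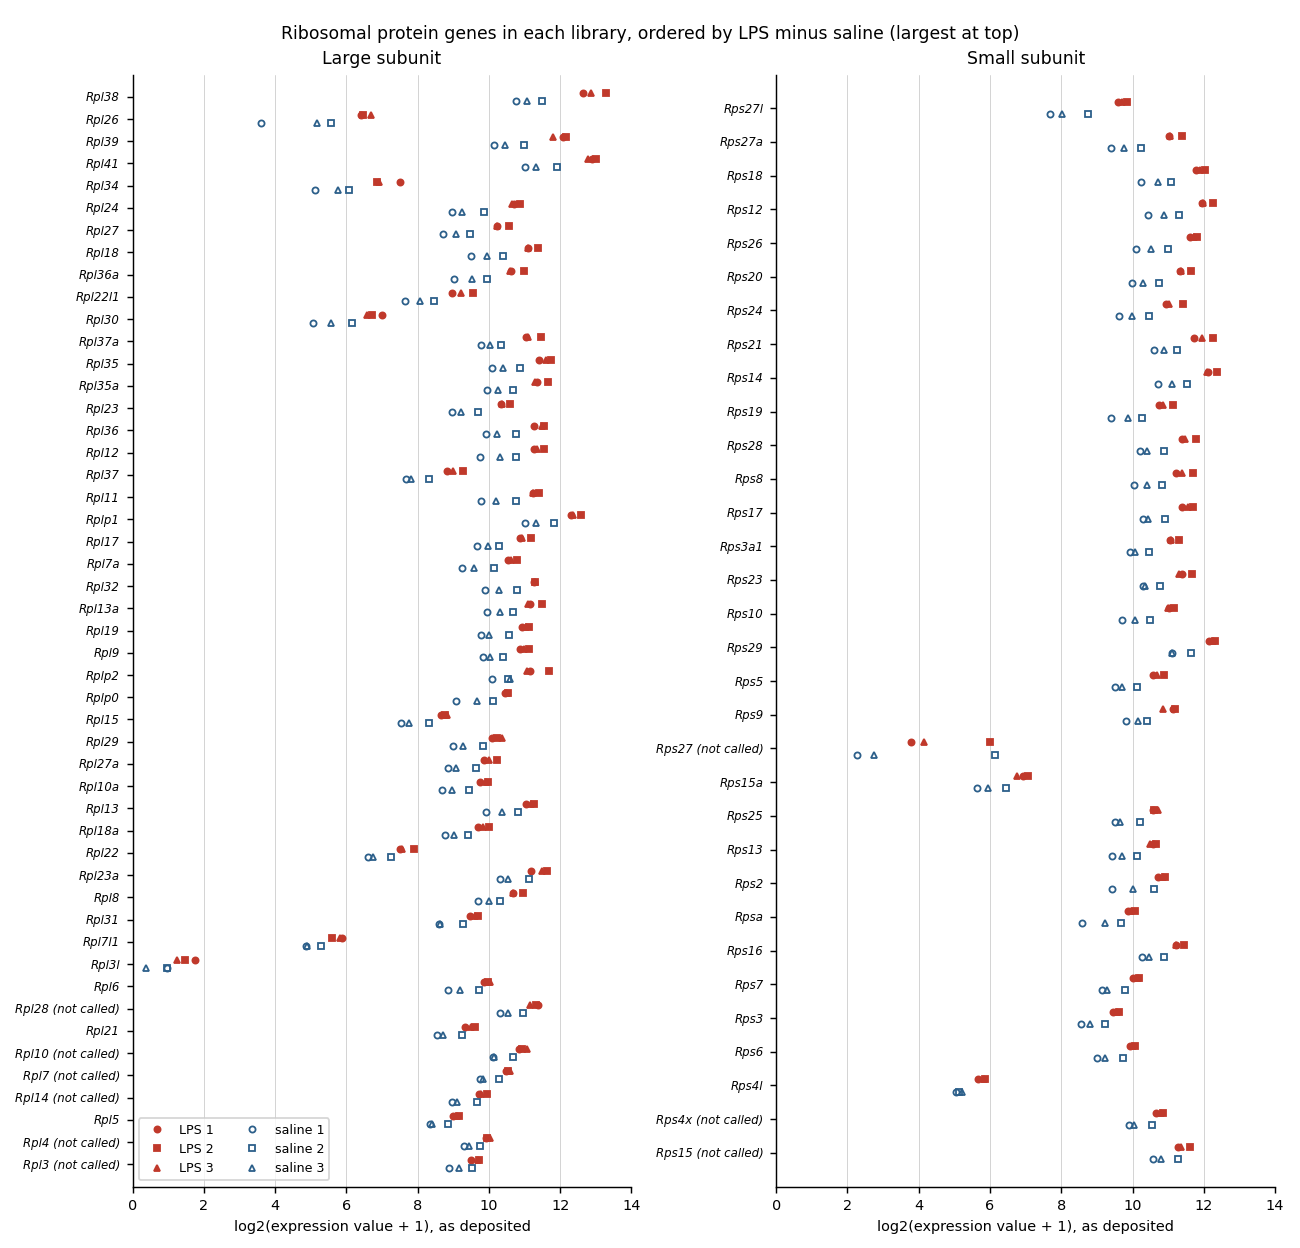
Deposited log2 values of 81 of the 82 tested ribosomal protein genes in each library (filled red, LPS; open blue, saline), split by subunit and ordered by difference, with the largest at the top. All LPS values lie above all saline values in the genes shown except Rps27 and Rpl3, and saline 2 is the saline library closest to LPS in most of them.

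The saline libraries were not alike. The median of the 82 genes was 10.71, 10.94 and 10.81 in LPS 1 to 3, and 9.57, 10.31 and 9.96 in saline 1 to 3. Saline 2 was the highest saline library in 80 genes and saline 1 the lowest of all 3 in 81, whereas in LPS lungs LPS 2 was highest in 68 and LPS 1 lowest in 62. The gap between saline 2 and saline 1 was 0.748 at the median, against LPS minus saline 2 differences of 0.479, 0.675 and 0.521 for LPS 1 to 3. In 16 genes the range of the 3 saline values was wider than the LPS difference. The median SD was 0.144 in LPS libraries and 0.381 in saline libraries, compared with 0.151 in LPS and 0.208 in saline libraries over all genes tested.

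Other short transcripts moved the same way as deposited. Their median was 0.236 under quantile normalization and -0.309 with equal sums, where that of all genes was -0.678. Of 2699 other genes with transcripts of 390 to 1599 nt, the span that holds the 5th to 95th percentile of the members, 1217 rose (45.1%) and 316 fell, with a median of 0.42. Their median length of 1160 nt and median level of 4.35 were not those of the members, 729 nt and 10.4. Of these 2699 genes, 41 had a level of at least 9.535, the lower quartile of the members. These 41 had a median of 1.037, above the 0.935 of the members, and 26 rose (63.4%) and 2 fell. Level is the mean over LPS and saline libraries together, so a gene could pass this cut through high LPS values, which can raise the median. These 41 also depended on scaling: equal sums gave a median of 0.235 with 13 higher and 9 lower, quantile normalization 0.000 with 13 and 12, and removal of the length and level trend -0.008 with 13 and 10. Their medians were 11.27, 11.33 and 11.21 in LPS libraries and 9.81, 10.34 and 9.92 in saline libraries, with saline 2 again the highest saline library. The 9 longer transcripts at that level had a median of 0.832, with 5 higher and 0 lower, but -0.104 with 0 higher and 3 lower under quantile normalization. With equal sums their median was 0.029, with 1 higher and 1 lower.

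**Figure D2:**
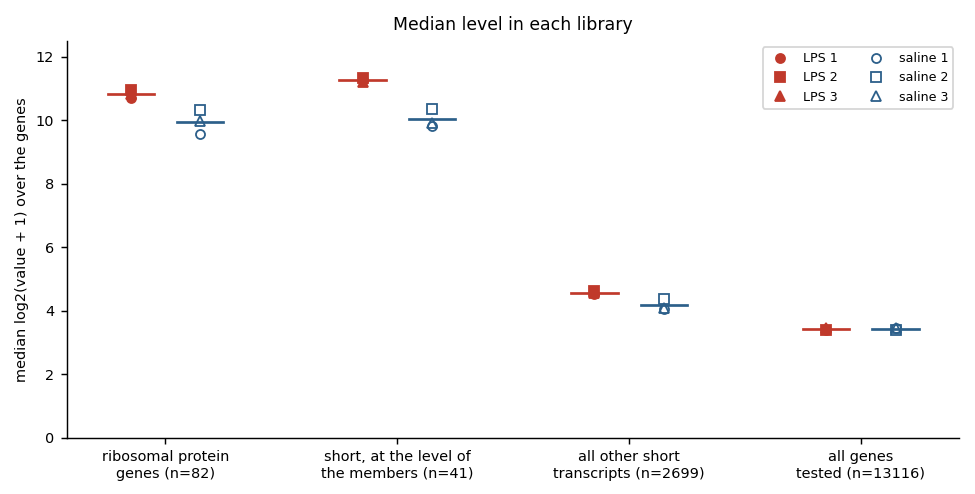
Median log2 value in each library over the ribosomal protein genes, other short transcripts at their level, all other short transcripts and all genes tested (points, libraries; bars, means; LPS left, saline right). The medians of the ribosomal protein genes are 10.71 to 10.94 for LPS libraries and 9.57 to 10.31 for saline libraries, and those of short transcripts at the same level are 11.21 to 11.33 for LPS libraries and 9.81 to 10.34 for saline libraries.

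The difference fell with annotated transcript length among genes outside the members, and a contrast within saline followed the same order. For other genes from 300 to under 500 nt the median LPS difference was 0.739, for those from 1000 to under 1500 nt 0.331, for those from 2000 to under 3000 nt 0.070 and for those of 5000 nt or more -0.426. Saline 2 minus the mean of saline 1 and 3 gave 0.457, 0.252, 0.027 and -0.250 in these bins. Ribosomal protein genes lay above other genes of their length in both contrasts: in the bin from 500 to under 700 nt they had a median of 1.111 against 0.688 for LPS minus saline, and 0.652 against 0.485 within saline. The difference also rose with level: other genes at a mean of 10 or above had a median of 0.986, beside 1.002 for the 52 members there. Those from 8 to under 10 had 0.915, beside 0.785 for 21 members. This mean includes the LPS values, so a gene high in LPS libraries moves to a higher bin, which can add to that rise. With the length trend removed, 31 members were higher (against 23.6% of all genes) and 0 lower (against 22.8%), with a median of 0.387. Length and level move with the result, and their part in it was not tested apart from these alternatives.

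**Figure D3:**
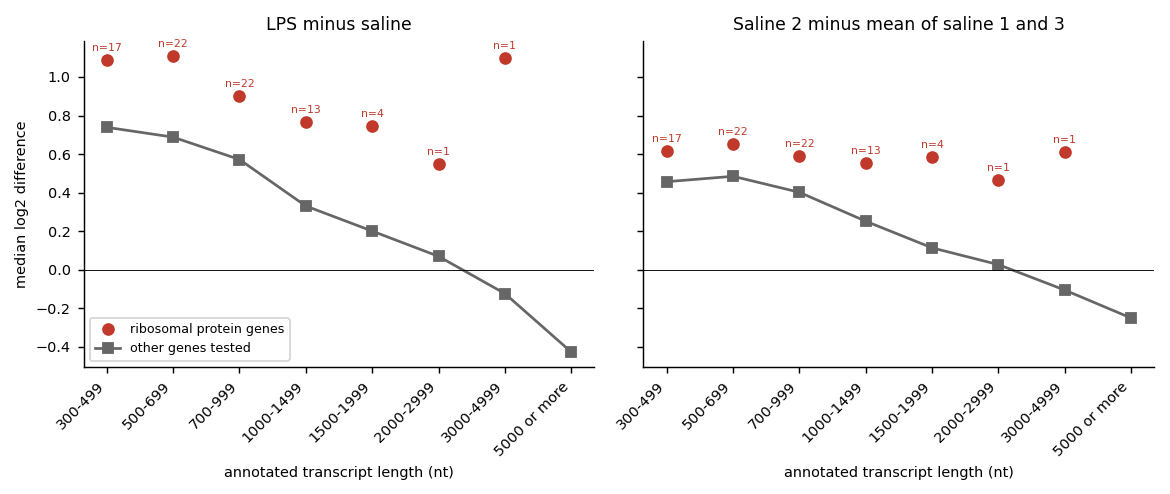
Median log2 difference by annotated transcript length, for ribosomal protein genes (red circles, with their number) and other tested genes (grey squares), for LPS minus saline (left) and for saline 2 minus the mean of saline 1 and 3 (right). Both panels fall with length for other genes, from 0.739 to -0.426 on the left and from 0.457 to -0.250 on the right.

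Within the family, shorter coding sequences went with larger differences. Across 81 genes with a length, which share the same 6 libraries, Pearson's r with log2 coding length was -0.624 and Spearman's rho -0.630; with transcript length they were -0.437 and -0.462, and with level, over 82 genes, 0.121 and 0.307. Genes of at most 300 nt of coding sequence had a median of 1.115 (10 genes), those over 300 and up to 450 nt 1.089 (28), those over 450 and up to 600 nt 0.932 (19) and longer ones 0.755 (24).

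Rpl38 stood at the top. It encodes a small protein of the large subunit that is known in mouse embryos for its role in translating Hox mRNAs, and lies on chromosome 11, 114668524 to 114672331, plus strand (mm10). Its values were 12.64, 13.29 and 12.85 in LPS 1 to 3 and 10.77, 11.49 and 11.07 in saline 1 to 3, a difference of 1.82 ± 0.31 (SE), or 3.53-fold, with an adjusted p of 0.0016. Rps28, which encodes a small-subunit protein and has a coding sequence of 210 nt beside 213 nt for Rpl38, had a difference of 1.06. As a share of the summed values of all members, Rpl38 took 4.21%, 5.48% and 4.68% in LPS libraries and 2.75%, 2.71% and 2.76% in saline libraries, so its share was higher in all 3 LPS libraries. The annotation holds 3 copies of its coding sequence at 95% identity or more, 1 of them identical, and none has a row in the tables.

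Rps27l, a p53-inducible paralogue of the small-subunit protein gene Rps27, came after Rpl38 and Rpl26. On chromosome 9, 66946086 to 66949516, plus strand, it had 9.59, 9.84 and 9.71 in LPS 1 to 3 and 7.69, 8.74 and 8.02 in saline 1 to 3. The difference was 1.57 ± 0.27 (SE), with an adjusted p of 0.0017. Its share of the members' sum was 0.509%, 0.50% and 0.531% in LPS libraries and 0.325%, 0.401% and 0.334% in saline libraries, and the annotation holds 0 copies of it at that identity. Rpl38 and Rps27l were the 2 members that passed the test as higher in all 4 of the scalings by equal sums, by quantile, by length and by length with level, and they passed in all 19 alternative fits. Their differences over those fits ranged from 0.502 to 2.047 for Rpl38, with adjusted p from 0.000343 to 0.0274, and from 0.511 to 1.861 for Rps27l, with adjusted p from 0.000517 to 0.0194.

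Each library was also centred on the median of the members, an analysis added after seeing the data. Then 13 members were higher than the family and 4 were lower, where 4.41% of all genes were higher and 59.3% lower. These shares of all genes are largely set by the centring, which lowers the differences of genes outside the family. They are therefore no background for the members, and with most genes called the adjustment is mild. Rpl38 led with 0.94 ± 0.14 (SE) above the family and Rps27l had 0.69 ± 0.19. Of these 17, Rpl38, Rps27l, Rpl39, Rpl41 and Rpl24 passed the test in all 6 fits that left out a library. Rpl39, which encodes a protein lining the exit tunnel, and Rpl41, the smallest ribosomal protein, were each 0.61 above it, with SE of 0.15 and 0.14. Rpl24, whose product lies at the interface of the subunits, was 0.51 ± 0.17 above. Among the 4 lower ones were Rpl3 (-0.42), Rpl4 (-0.41) and Rps15 (-0.34), and none of these passed in more than 3 of those 6 fits.

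**Figure D4:**
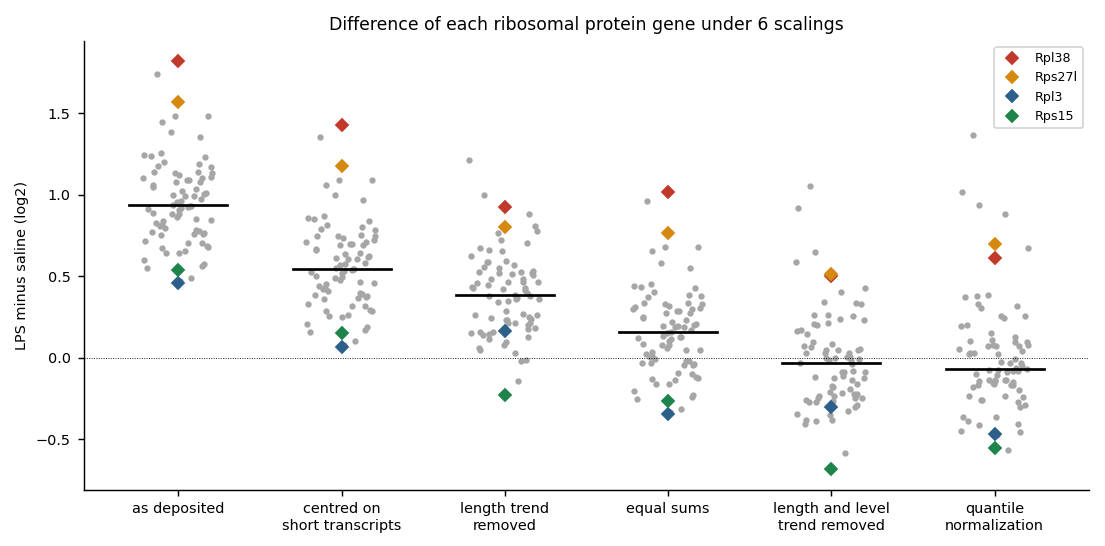
LPS minus saline difference of each of the 82 tested genes as deposited and under 5 other scalings (grey points, genes; black bars, medians; diamonds, 4 named genes). The medians run from 0.935 as deposited to -0.066 with quantile normalization, while Rpl38 and Rps27l stay above 0.5 throughout.

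Rpl39 had 12.09, 12.17 and 11.79 in LPS 1 to 3 and 10.15, 10.99 and 10.46 in saline 1 to 3. Rpl41 had the highest deposited mean of the family over the 6 libraries, although Rpl38 had the higher LPS mean (12.93 against 12.90). Its values were 12.90, 13.00 and 12.78 in LPS libraries and 11.001, 11.908 and 11.33 in saline libraries. Rpl24 had 10.70, 10.88 and 10.64 in LPS libraries and 8.95, 9.87 and 9.24 in saline libraries. All 3 LPS values lay above all 3 saline values in each, and differences were 1.48, 1.48 and 1.39. Rps27a, which encodes ubiquitin fused to a small-subunit protein, had 11.03, 11.39 and 11.04 in LPS libraries and 9.39, 10.24 and 9.76 in saline libraries, a difference of 1.35 ± 0.27 (SE). By mean over the 6 libraries Rpl38 came next, and then Rplp1, Rps29 and Rps14, with differences of 1.03, 0.96 and 1.08. Among the 18699 genes with a value in all 6 libraries, 52 to 56 members were in the top 100 of each library.

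Genes of the stalk, which recruits elongation factors to the large subunit, rose with the family as deposited and lay below 0 under quantile normalization. Rplp0 had 10.45, 10.54 and 10.51 in LPS 1 to 3 and 9.08, 10.11 and 9.67 in saline 1 to 3, a difference of 0.88. Rplp1 had 12.29, 12.59 and 12.36 in LPS libraries and 11.02, 11.82 and 11.31 in saline libraries. Rplp2 had 11.16, 11.67 and 11.06 in LPS libraries and 10.10, 10.53 and 10.59 in saline libraries, a difference of 0.89, and here saline 3 was the highest saline library. Rpsa, a small-subunit protein that is also known as a laminin receptor, had 9.87, 10.08 and 9.95 in LPS libraries and 8.59, 9.66 and 9.22 in saline libraries, a difference of 0.81. The adjusted p were 0.0251, 0.0173, 0.0217 and 0.0364 in this order, and under quantile normalization the 4 differences were -0.135, -0.164, -0.237 and -0.097.

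Of the 7 paralogues 5 rose and the other two were not tested. Rpl22l1 rose by 1.20 ± 0.26 (SE) with values of 8.98, 9.56 and 9.22 in LPS libraries and 7.63, 8.46 and 8.06 in saline libraries, and its parent Rpl22 by 0.78 ± 0.22. Rpl3l, known as the paralogue of striated muscle, rose by 0.72 ± 0.20, with low values of 1.75, 1.47 and 1.24 in LPS libraries and 0.96, 0.96 and 0.39 in saline libraries. Cardiac muscle markers went the other way, with 10 of 10 lower. The sum over 7 of them was 54.4 to 176.3 in LPS libraries and 257.6 to 2205.7 in saline libraries, and their part was not tested. Rpl3, the parent of Rpl3l, is at the peptidyl transferase centre. Its values were 9.50, 9.73 and 9.70 in LPS libraries and 8.87, 9.54 and 9.15 in saline libraries. These overlapped, and the difference of 0.46 was the smallest of the family (adjusted p = 0.121).

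Rpl7l1 rose by 0.75 ± 0.17 (SE), whereas Rpl7 had a difference of 0.58 with an adjusted p of 0.061. Rps4l, a transcribed pseudogene in RefSeq, rose by 0.65 ± 0.14, and Rps4x had 0.60 (adjusted p = 0.0673). Rpl10 had 0.64 (adjusted p = 0.0534). Its testis paralogue Rpl10l was listed at 0 in every library, and Rpl39l, also known from testis, had 0.79, 0.13 and 0.34 in LPS libraries and 0.09, 0.45 and 0.59 in saline libraries, so neither passed the filter on low values.

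Among the 10 genes that did not pass were Rpl3, Rpl4, Rpl7, Rpl10, Rpl14, Rpl28, Rps4x, Rps15 and Rps27. All of these but Rps27 had a mean value above 8 and a difference of 0.457 to 0.673. Rpl4, which lines the exit tunnel, had 9.91, 9.96 and 10.04 in LPS libraries and 9.31, 9.76 and 9.44 in saline libraries. Rps15 had 11.27, 11.60 and 11.37 in LPS libraries and 10.58, 11.26 and 10.79 in saline libraries. In both the groups did not overlap, and saline 2 was the saline library nearest to LPS. Rpl10, Rpl23a, Rpl28, Rps15 and Rps4x were among the members that passed the test as lower under both quantile normalization and removal of the length and level trend.

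Some ribosomal protein genes stood far below the rest, and near-identical copies of them stood at the level of the family. Processed copies of these genes are many in the mouse genome: of 83 members with an annotated principal transcript, 77 had another gene in the annotation at 95% identity or more to their coding sequence, 17 had an identical one, and Rpl21 had 56. Rps27 had 3.79, 6.00 and 4.14 in LPS libraries and 2.26, 6.15 and 2.75 in saline libraries, overlapping (adjusted p = 0.423), while Rps27rt, which has the identical coding sequence over 255 nt, had 12.53, 13.09 and 13.03 in LPS libraries and 11.69, 12.24 and 11.92 in saline libraries. Rpl26, whose protein is known to bind p53 mRNA, had 6.41, 6.46 and 6.69 in LPS libraries and 3.61, 5.56 and 5.16 in saline libraries, and its copy Gm15772 (99.5% identical) averaged 11.53 in LPS and 10.53 in saline libraries. Rpl34 had 7.51, 6.86 and 6.92 in LPS libraries and 5.12, 6.06 and 5.76 in saline libraries, and Rpl34-ps1 (99.4%) averaged 11.62 in LPS and 10.25 in saline libraries. Rpl30 had 6.99, 6.71 and 6.58 in LPS libraries and 5.07, 6.15 and 5.56 in saline libraries, and Gm12191 (99.7%) averaged 11.23 in LPS and 10.27 in saline libraries.

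Values of these genes alone are uncertain, since reads of gene and copy cannot be told apart where the sequences match. Summed with their copies, Rpl26 had a difference of 1.02 ± 0.28 (SE) in place of 1.74 ± 0.41 alone, and Rpl34 had 1.38 ± 0.26 in place of 1.45 ± 0.27. Rpl30 had 0.97 ± 0.25 in place of 1.17, and Rps27 0.93 ± 0.31 in place of 0.93 ± 0.92. The sum for Rps27 passed the test with an adjusted p of 0.0321, where the range over its 19 alternative fits was 0.0229 to 0.981. Rps15a, at 6.93, 7.07 and 6.76 in LPS libraries and 5.63, 6.45 and 5.94 in saline libraries, had no copy at a high value: Rps15a-ps6 averaged 4.03 in LPS and 3.26 in saline libraries.

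**Figure D5:**
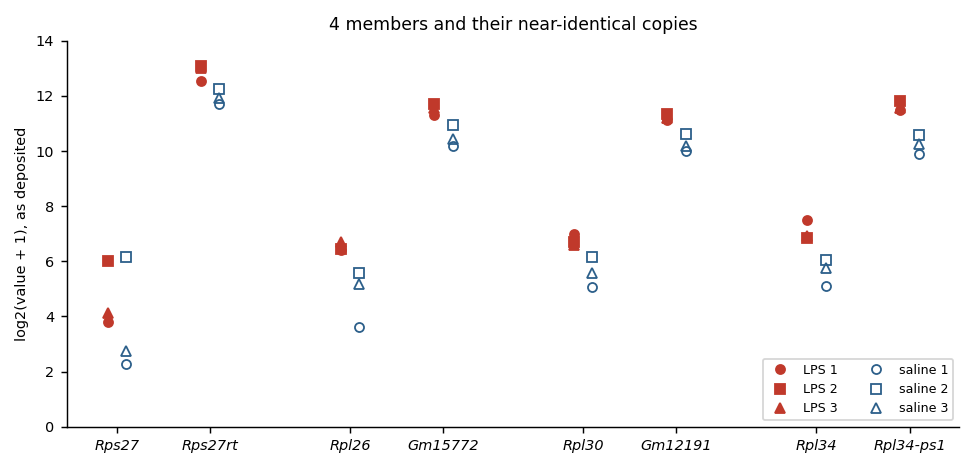
Deposited log2 values of 4 low ribosomal protein genes and, to the right of each, a near-identical copy (filled red, LPS; open blue, saline). The copies stand at 9.897 to 13.093, above the genes, and in each copy all LPS values lie above all saline values.

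Shares of a library's summed values do not depend on a scaling factor between libraries, and were taken over the 18699 genes with a value in all 6. On this basis the members took 17.4%, 20.7% and 18.5% in LPS 1 to 3 and 13.2%, 19.2% and 16.6% in saline 1 to 3. The groups overlapped, with means of 18.8% ± 1.68 in LPS and 16.3% ± 3.03 in saline (SD, n = 3 each). The club cell gene Scgb1a1 alone took 17.1% to 18.8% in LPS libraries and 11.03% to 20.42% in saline libraries. An alternative added after seeing the data left out the 20 most abundant other genes. The shares were then 26.9%, 30.9% and 28.5% in LPS libraries and 18.8%, 25.2% and 22.2% in saline libraries, without overlap. Those 20 genes took 35.4%, 33.0% and 35.3% of all values in LPS libraries and 29.7%, 23.5% and 25.1% in saline libraries. Leaving them out therefore lowers the LPS sums more, which widens the gap by itself. The large subunit made up 55.7% ± 0.11 of the members' sum in LPS libraries and 54.2% ± 0.37 in saline libraries (SD, n = 3 each). Rpl38, a large-subunit gene, alone averaged 4.79% of that sum in LPS and 2.74% in saline libraries, a wider gap than that of the subunit. The sum also leaves out copies outside the rule, such as Rps27rt.

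Genes that work with the ribosome rose in part, set against the 25.7% of all genes that rose and the 24.3% that fell. Of 5 tested genes whose proteins are fused to or bound on the ribosome, 4 rose and 0 fell. Their median was 0.932 as deposited, 0.128 with equal sums, -0.232 under quantile normalization and -0.066 with length and level removed. Among them were Rpl36al, the near-copy of Rpl36a, which rose by 1.49 ± 0.26 (SE), and Fau, which carries a small-subunit protein and rose by 1.22 ± 0.27. Of 37 initiation factors 25 rose and 0 fell, with a median of 0.573. Their median was -0.185 with equal sums, where that of all genes was -0.678. It was 0.133 under quantile normalization and 0.194 with length and level removed. Eif6, which keeps new large subunits from joining early, rose by 1.65 ± 0.20 and Eif2s2, a subunit of the factor that brings the initiator tRNA, by 1.64 ± 0.22. Of 11 elongation factors 4 rose and 2 fell, with a median of 0.351 that was -0.452 with equal sums, -0.066 under quantile normalization and -0.130 with length and level removed. Eef1e1, a scaffold of tRNA synthetases, rose by 1.65 ± 0.23, and Eef1a2, the elongation factor of muscle and neurons, fell by 2.44 with values of 0.07, 0.19 and 0.25 in LPS libraries and 3.96, 2.34 and 1.53 in saline libraries. With a pseudocount of 0.1 the difference of Eef1a2 was -4.50. The cardiac muscle markers were lower in 10 of 10, and 7 of them were summed. These sums were 54.4, 119.2 and 176.3 in LPS 1 to 3 and 2205.7, 770.9 and 257.6 in saline 1 to 3. The part of these markers in the fall of Eef1a2 was not tested. Of 20 other mRNAs with a TOP tract 11 rose and 0 fell, with a median of 0.622, whereas equal sums gave -0.176 with 0 higher and 7 lower, quantile normalization -0.287 with 0 and 8, and removal of length and level -0.050 with 4 and 8. Btf3, a subunit of the nascent-chain complex, rose by 1.28 ± 0.25.

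Among 16 regulators of ribosomal protein mRNA translation 7 rose and 3 fell, with a median of 0.199. That median was -0.563 with equal sums, 0.093 under quantile normalization and 0.160 with length and level removed. Myc, which is known to raise ribosome production, rose by 2.13 ± 0.23 (SE), with 4.77, 4.42 and 4.09 in LPS libraries and 1.99, 2.19 and 2.73 in saline libraries, and Eif4ebp2, a brake on cap-dependent initiation, fell by 1.85. Of 11 genes of ribosome storage and quality control 5 rose and 3 fell, with a median of 0.073. That median was -0.686 with equal sums, -0.062 under quantile normalization and 0.051 with length and level removed. Eef2k, the kinase that slows elongation, fell by 0.91 and Serbp1, which holds idle ribosomes, rose by 0.79. Medians in other families were 0.930 for proteasome subunits (34 of 37 higher) and 0.898 for Sm and Lsm proteins (20 of 25). They were 0.751 for oxidative phosphorylation subunits (45 of 75) and 0.624 for mitochondrial ribosomal proteins (52 of 77). Median transcript lengths of these families were, in turn, 1512, 1055, 683 and 1223 nt, against 729 nt for the members. The median of the oxidative phosphorylation subunits was -0.042 with equal sums, -0.008 under quantile normalization and -0.113 with length and level removed. In the same order the medians were -0.123, 0.358 and 0.219 for mitochondrial ribosomal proteins. They were 0.151, 0.386 and 0.395 for proteasome subunits and 0.106, 0.494 and 0.333 for Sm and Lsm proteins.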

How the data were processed

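Lung RNA was extracted with Trizol and 1.3 ug of total RNA was made into libraries with the NEBNext Ultra II Directional kit, per the labels' protocols. Reads were aligned with TopHat to mm10, per the submitters' processing notes. For the counter, annotation and scaling, nothing is given in the sources used here. The authors deposited 1 table per library of a symbol and a log2 value, read from the values as log2(value + 1). Low values multiplied by transcript length gathered more than values alone (fullest bin of 9 to 19 genes against 6 to 10), so the value may be scaled by length. Depth is unknown, so no count-based interval is given.

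Libraries were grouped by title. The difference of LPS from saline was fitted in limma (version 3.58.1, R version 4.3.3) with a variance trend. Genes needed at least 3 libraries with a linear value of at least 1 (13116 genes, 10295 of them with 3 LPS values and 2821 with 2, since LPS 3 lacks 4484 genes), with Benjamini-Hochberg adjustment and a threshold of 0.05. A log2 scale understates the change of low genes. The fit was tested on simulated data. Transcript lengths (12692 tested genes) are those of the shortest principal transcript of GENCODE M21, which has the build of the files; copies are other genes matching a member's coding sequence. For Rps20, Rps24, Rps3 and Rpsa the annotated length may be longer than the usual transcript.

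Named genes were the 8 largest differences among called members, the 5 highest and 5 lowest by level, stalk members and Rpsa, paralogues with parents, called genes of each list and Lcn2. Members whose direction turns under an alternative are given by counts, and 1 member is counted but not reported by name here. Genes named among the 10 that did not pass, the promoters shown or compared with them, Rpl30, Rps15a and Rps28 were named after their values were seen. The members and lists were chosen with earlier results of these data known. Alternatives were other scalings, filters, pseudocounts, variance models, a replicate block, left-out libraries and, added after seeing the data, length and level trends, shares without abundant genes and sums with copies.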

Additional observations from a re-analysis of the deposited data

How the results depend on the processing

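Of the 72 members called higher, 7 were so with equal sums, 43 without a filter on low values, 32 at a threshold of 0.01, 5 with quantile normalization, 31 with the length trend removed and 5 with the length and level trend removed; members called lower numbered 12 with quantile normalization and 8 with the length and level trend removed, and 0 in the other fits run. The median difference of the members, 0.935, was 0.157 with equal sums, -0.066 with quantile normalization, 0.387 with the length trend removed, -0.034 with the length and level trend removed and 0.546 centred on short transcripts. The median of other short transcripts, 0.42, was -0.309, 0.236 and 0.031 with equal sums, quantile normalization and centring on short transcripts. Leaving out 1 library gave 31 to 82 members higher (31 without LPS 2, 35 without saline 3 and 82 without saline 2) and 0 lower, with medians of 0.779 to 1.139 for members and 0.370 to 0.505 for short transcripts. Comparing saline 1 and 3 with LPS 1 and 2 gave 81 higher and a median of 1.188. The shares of 18.8% in LPS libraries and 16.3% in saline libraries became 28.77% and 22.02% without the 20 most abundant other genes. The cause of these changes was not tested.

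Of the 82 members, 24 had a difference below 0 with equal sums, 47 with quantile normalization, 4 with the length trend removed and 45 with the length and level trend removed. Among the genes named by rule these turned. With equal sums Rpl3 had -0.346, Rpl7 -0.227, Rps4x -0.205, Rpl10 -0.161, Rps4l -0.133, Rpl7l1 -0.034, Rpl22 -0.020 and Serbp1 -0.005, and of members named after their values were seen, Rpl4, Rps15 and Rpl14 for example had -0.334, -0.264 and -0.240. With quantile normalization Rpl3 had -0.467, Rpl7 -0.453, Rps4x -0.449, Rpl10 -0.364, Rplp2 -0.237, Rplp1 -0.164, Rps29 -0.154, Rplp0 -0.135, Rpsa -0.097 and Rps14 -0.061. With the length and level trend removed Rpl10 had -0.384, Rplp2 -0.381, Rps29 -0.348, Rps4x -0.344, Rpl3 -0.300, Rpl7 -0.287, Rplp1 -0.190, Rpl22 -0.133, Rps14 -0.079 and Fau -0.008, and with the length trend alone Rpl22 had -0.012. In all 19 alternative fits 26 members had a difference above 0.

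Whether the replicate numbers of the titles pair the samples is not known. Deviations of same-numbered libraries correlated at -0.234, -0.078 and -0.252 over 10295 genes, but so few libraries cannot decide it. With the replicate number as a block 71 members were higher, 0 lower, and the medians were 0.935 for members and 0.414 for short transcripts. No counts were available, so depth sets no limit that can be given here.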

Other observations

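Of 10 tested rows with ribosomal protein symbols outside the rule, pseudogenes and retrogenes among them, 6 were higher at an adjusted p of 0.05 (limma) and 0 lower, against 25.7% and 24.3% of all genes. The rows named here were chosen after their values were seen. Rpl14-ps1 had 4.64, 5.31 and 4.96 in LPS libraries and 4.72, 5.19 and 4.74 in saline libraries, overlapping, and Rpl31-ps12 had 2.56, 3.25 and 2.97 in LPS libraries and 3.39, 3.46 and 2.69 in saline libraries. Their differences were 0.09 and -0.25 with adjusted p of 0.744 and 0.402 (limma), beside 0.56 and 0.76 for Rpl14 and Rpl31. Rpl37rt, a copy of Rpl37, rose by 0.91 with 2.63, 2.55 and 2.24 in LPS libraries and 1.46, 1.73 and 1.52 in saline libraries.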
